A study of Drosophila melanogaster with 3 samples.

Results

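The cytosolic ribosomal protein genes of *Drosophila melanogaster* were examined for peaks of the Zen-eGFP fusion protein in early embryos. Members were the protein-coding genes whose symbol begins with RpL (large subunit) or RpS (small subunit) followed by a digit in the Ensembl annotation, which gave 88 of the 13945 protein-coding genes on arms 2L, 2R, 3L, 3R, 4 and X. The rule uses symbols and no peak values, although earlier results of these data were known when the set was chosen. The symbol rule also takes in genes named -like, whose products need not be ribosomal subunits.

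The data came from ChIP-seq, in which DNA bound by a protein is immunoprecipitated and sequenced. All 3 libraries were biological replicates of a single group, mixed-sex whole embryos 0 to 4 h old from a transgenic line that stably expresses Zen with eGFP fused to its C terminus. The antibody was against GFP by the description of the samples, while their antibody tag reads zen, and chromatin was sonicated to 200 to 800 bp. Every library carried the fusion, and no library from embryos without it was analysed here, nor any other condition, so each value below is a description set beside the same value for all protein-coding genes. The labels do not state which promoter drives the fusion, and whole embryos mix cells that contain Zen with cells that lack it.

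A peak's summit is the base of its strongest signal. The authors deposited a list of 30000 summits for each library, a list of 30000 for the pooled libraries, and a list kept by the irreproducible discovery rate (IDR), which holds the 7405 strongest summits of the pooled list. Strength is given as a rank within a list, with 1 the strongest, because the signal value has another scale in each list. For single libraries the strongest 7405 summits were used, called the top list. A start summit lies within 500 bp of any annotated transcript start of the gene, and a body summit lies in the gene or within 2 kb of either end. No list gives reads per peak, so sequencing depth is unknown and the precision it gives to a count cannot be stated.

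Zen is a homeodomain protein of the dorsal side of the early embryo, where it is required for the amnioserosa, and homeodomains commonly bind sites with the core TAATTA. Ribosomal proteins form the large and the small subunit of the ribosome together with the ribosomal RNAs. Their genes are among the most highly transcribed in most cells, and loss of a single copy of many of them gives the slow-growing Minute phenotype in the fly. Their promoters are known for a pyrimidine-rich start, the TCT initiator, in place of the usual initiator. The DRE (TATCGATA), the site of the factor DREF, is a common element of housekeeping promoters in the fly.

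Promoter sequences are given here for genes that the results below turn on, each from 150 bases before the first base of the transcript to 30 bases from it, 5′ to 3′ on the strand of the gene, read from the RefSeq assembly of the dm6 build. Capitals mark TATCGATA, TAATTA and any CTTT whose C lies within 5 bp of the annotated start. The first set holds members with some of the strongest start summits and members with a DRE near the summit. RpL14 lies at chr3L:8600856-8601035 (forward strand), RpL34b at chr3R:9401197-9401376 (reverse strand), RpL32 at chr3R:30046132-30046311 (reverse strand), RpS20 at chr3R:20822031-20822210 (forward strand), RpL34a at chr3R:26059238-26059417 (reverse strand) and RpS25 at chr3R:11216258-11216437 (reverse strand).
RpL14: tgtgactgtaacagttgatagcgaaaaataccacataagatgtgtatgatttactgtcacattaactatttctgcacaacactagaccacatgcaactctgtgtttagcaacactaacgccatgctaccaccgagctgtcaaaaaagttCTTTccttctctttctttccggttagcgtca
RpL34b: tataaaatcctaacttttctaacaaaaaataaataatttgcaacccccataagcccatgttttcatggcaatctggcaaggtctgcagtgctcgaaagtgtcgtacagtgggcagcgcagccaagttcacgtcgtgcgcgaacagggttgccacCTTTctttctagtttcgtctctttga
RpL32: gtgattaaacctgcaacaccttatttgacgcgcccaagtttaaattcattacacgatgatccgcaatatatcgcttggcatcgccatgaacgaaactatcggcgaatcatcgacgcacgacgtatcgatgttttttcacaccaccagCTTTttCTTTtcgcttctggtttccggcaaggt
RpS20: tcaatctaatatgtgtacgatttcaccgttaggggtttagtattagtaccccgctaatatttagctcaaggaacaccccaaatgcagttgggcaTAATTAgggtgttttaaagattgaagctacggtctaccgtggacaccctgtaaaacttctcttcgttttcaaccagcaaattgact
RpL34a: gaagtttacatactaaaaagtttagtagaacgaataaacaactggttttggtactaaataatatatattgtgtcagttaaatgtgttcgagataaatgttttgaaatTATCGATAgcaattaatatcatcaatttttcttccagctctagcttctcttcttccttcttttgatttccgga
RpS25: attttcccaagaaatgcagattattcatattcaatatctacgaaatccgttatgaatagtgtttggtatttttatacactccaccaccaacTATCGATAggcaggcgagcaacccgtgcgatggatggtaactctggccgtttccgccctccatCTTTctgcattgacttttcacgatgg

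The second set pairs copies of a duplicated gene, the first of each pair with a start summit in the IDR list and the other without one. RpS5a lies at chrX:17148235-17148414 (reverse strand) and RpS5b at chr3R:14901534-14901713 (reverse strand). RpS10b lies at chrX:19597881-19598060 (forward strand) and RpS10a at chr3R:27652610-27652789 (forward strand). RpL10Ab lies at chr3L:11822701-11822880 (forward strand) and RpL10Aa at chr3R:15037216-15037395 (forward strand).
RpS5a: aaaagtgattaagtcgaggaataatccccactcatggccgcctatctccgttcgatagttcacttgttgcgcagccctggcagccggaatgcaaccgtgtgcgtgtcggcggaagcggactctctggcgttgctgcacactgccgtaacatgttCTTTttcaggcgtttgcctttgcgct
RpS5b: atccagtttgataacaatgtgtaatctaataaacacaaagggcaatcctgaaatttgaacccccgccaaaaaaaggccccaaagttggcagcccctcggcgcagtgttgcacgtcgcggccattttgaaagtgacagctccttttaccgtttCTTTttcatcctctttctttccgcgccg
RpS10b: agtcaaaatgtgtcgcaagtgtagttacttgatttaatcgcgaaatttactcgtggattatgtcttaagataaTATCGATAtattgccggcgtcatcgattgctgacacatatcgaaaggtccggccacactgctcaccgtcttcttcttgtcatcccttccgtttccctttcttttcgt
RpS10a: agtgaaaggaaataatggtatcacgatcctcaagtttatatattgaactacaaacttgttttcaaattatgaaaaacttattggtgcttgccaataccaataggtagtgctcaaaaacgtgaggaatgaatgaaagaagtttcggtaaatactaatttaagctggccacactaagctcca
RpL10Ab: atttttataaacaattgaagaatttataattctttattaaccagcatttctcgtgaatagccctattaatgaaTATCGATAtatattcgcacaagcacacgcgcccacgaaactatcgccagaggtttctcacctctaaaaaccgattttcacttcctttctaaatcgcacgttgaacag
RpL10Aa: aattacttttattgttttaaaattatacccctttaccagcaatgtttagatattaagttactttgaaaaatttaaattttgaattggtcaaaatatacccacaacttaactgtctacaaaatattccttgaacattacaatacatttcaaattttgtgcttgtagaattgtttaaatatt

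The last sequence is that of RpS7, at chr3R:30208991-30209170 (reverse strand), which holds a DRE but had no start summit in the IDR list.
RpS7: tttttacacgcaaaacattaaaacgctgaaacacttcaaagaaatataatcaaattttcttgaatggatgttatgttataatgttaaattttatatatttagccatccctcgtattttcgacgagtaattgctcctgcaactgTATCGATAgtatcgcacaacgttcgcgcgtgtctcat

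Most ribosomal protein genes had a summit at their start. In the IDR list 70 of 88 members (79.5%) had a start summit, against 29.3% of all protein-coding genes, and 76 (86.4%) had a body summit, against 46.8%. Of the other 18 members, 6 had a body summit alone and 12 had neither. No summit in a member's own body lay more than 500 bp from all of its starts: 0 such summits were found. The matching share over all genes is not given, so this 0 cannot be read as a trait of the members. The members' genes are short, with a median length of 1325.5 bp (304 to 4677 bp) against 2166 bp for all protein-coding genes, so a flank of 2 kb reaches well into neighbours.

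The count held up across the libraries. A start summit was present in the top list at 63 members in replicate 1, 68 in replicate 2 and 66 in replicate 3 (65.7 ± 2.52, SD, n = 3), where 28.3%, 27.7% and 29.6% of all protein-coding genes had one. A body summit was present at 71, 72 and 75 members (72.7 ± 2.08, SD, n = 3), against 45.4%, 44.8% and 48.3%. The 3 libraries thus differed by at most 5 members at starts, a spread far below the gap to the share over all genes.

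For comparison, 2 other sets of housekeeping genes were counted in the same way. Of 73 mitochondrial ribosomal protein genes, which encode the ribosome of the organelle, 41 (56.2%) had a start summit in the IDR list. Of 48 proteasome subunit genes, 19 (39.6%) had one. Both shares lay between that of the cytosolic set and that of all genes, in each library as well: the cytosolic set stood at 71.6%, 77.3% and 75%, the mitochondrial set at 53.4%, 54.8% and 56.2%, and the proteasome at 37.5%, 37.5% and 45.8%. The sets differed more when a summit was counted for a gene only if no start of another protein-coding gene was nearer. Under that rule 65 cytosolic members (73.9%) kept a summit, against 21.9% of all genes, 20 mitochondrial ribosomal protein genes (27.4%) and 10 proteasome genes (20.8%).

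The summits sat close to the starts. Among the 70 members the strongest start summit lay at a median of −63 bp from the nearest start of the gene, with quartiles at −104 and −25.25 bp, negative values being upstream. Upstream summits made up 62 of the 70 (88.6%), close to the 86.7% over all 4089 genes with a start summit. Between −150 and +50 bp lay 64 of the 70 (91.4%), against 56.6% of those 4089 genes, whose median was −112 bp with quartiles at −195 and −44 bp. The members' median was −67 bp in replicate 1, −53 bp in replicate 2 and −54 bp in replicate 3 (−58 ± 7.81, SD, n = 3), each nearer to the start than the medians of −115, −109 and −109 bp over all genes.

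**Figure D1:**
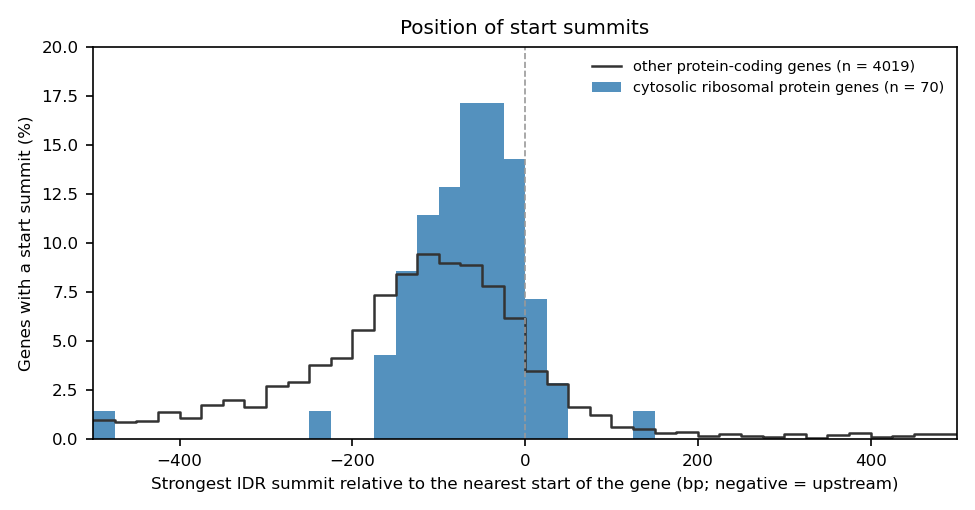
Position of the strongest IDR start summit relative to the nearest transcript start of the gene (x axis, bp, in bins of 25 bp) as the percent of genes with a start summit (y axis), for 70 ribosomal protein genes (filled bars) and 4019 other protein-coding genes (line). The ribosomal protein genes pile up just upstream of the start, with a median of −63 bp against −113 bp, and few lie beyond −150 bp.

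By annotation, 54 of the 70 summits fell outside genes, 13 in a 5′ UTR and 3 in an intron, RpL41 and RpS16 among them. The authors' intervals had a single common width of 416 bp at 36 of the 70, a width shared by 4010 of the 7405 summits listed, so the interval width carries little about these genes. A few members stood apart from the common position. The farthest upstream were RpS6 at −499 bp, RpL10Ab at −246 bp and RpS26 at −169 bp. RpS6, the small-subunit protein phosphorylated by S6 kinase downstream of TOR, just passed the limit of 500 bp, and its summit lay 50 bp from the start of the gene bys. Summits downstream of the start included those of RpL7 at +34 bp and RpL26 at +29 bp. RpL10Ab, RpL18 and RpL28 each had a further start summit: RpL10Ab a weaker one at −46 bp, RpL18 one at −341 bp that lay 64 bp from the start of Neos, and RpL28 one at −327 bp that lay 54 bp from the start of eIF1.

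In strength the members lay in the middle of the list. Their start summits had a median rank of 2907 in the IDR list, from 463 to 7203, with quartiles at 1842.5 and 4652.75, while the median over all genes with a start summit was 3514. With the IDR ranks split into 4 equal parts, the members numbered 18, 24, 18 and 10 from the strongest part to the weakest. The strongest part held 25.7% of the 70, against 26.9% of all genes with a start summit, and in the top lists it held 23.8%, 33.8% and 37.9% of members in replicates 1, 2 and 3, against 26.1%, 25.8% and 28.8%. The medians in the libraries were 3172, 2801 and 2437 (2803 ± 368, SD, n = 3), against 3498, 3510.5 and 3323 over all genes. So many ribosomal protein genes had a start summit, but in the IDR list their summits were not placed higher than those of other genes at the strong end, and few lay at the weak end.

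The 10 strongest members were RpL7, RpL14, RpL41, RpS27, RpL34b, RpL32, RpL23A, RpS20, RpL19 and RpL28, of which 8 belong to the large subunit. RpL7 ranked 463 in the IDR list at +34 bp, and 841, 389 and 383 in replicates 1, 2 and 3. RpL14 ranked 471 at −56 bp, and 555, 484 and 489 in the libraries, with summits at −57, −55 and −58 bp. RpL41, which encodes the smallest ribosomal protein, ranked 540 at −65 bp, and 584, 713 and 538 in the libraries. These members were near the top in every library. The fourth, RpS27, ranked 638 at −24 bp, and 868, 640 and 515 in the libraries. RpL34b ranked 644 at −104 bp, and 749, 1171 and 418. RpL32, whose transcript is a common reference in fly expression assays, ranked 658 at −111 bp, and 637, 684 and 670, the narrowest range of the 10. RpL23A, a protein of the rim of the exit tunnel for new polypeptides, ranked 748 at −91 bp, and 911, 920 and 639. RpS20 was the most uneven of the 10: it ranked 848 at −126 bp, 833 and 579 in replicates 1 and 3, but 1930 in replicate 2. RpL19 ranked 870 at −43 bp, and 1039, 668 and 933, and RpL28 ranked 878 at −126 bp, and 1092, 576 and 1200.

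**Figure D2:**
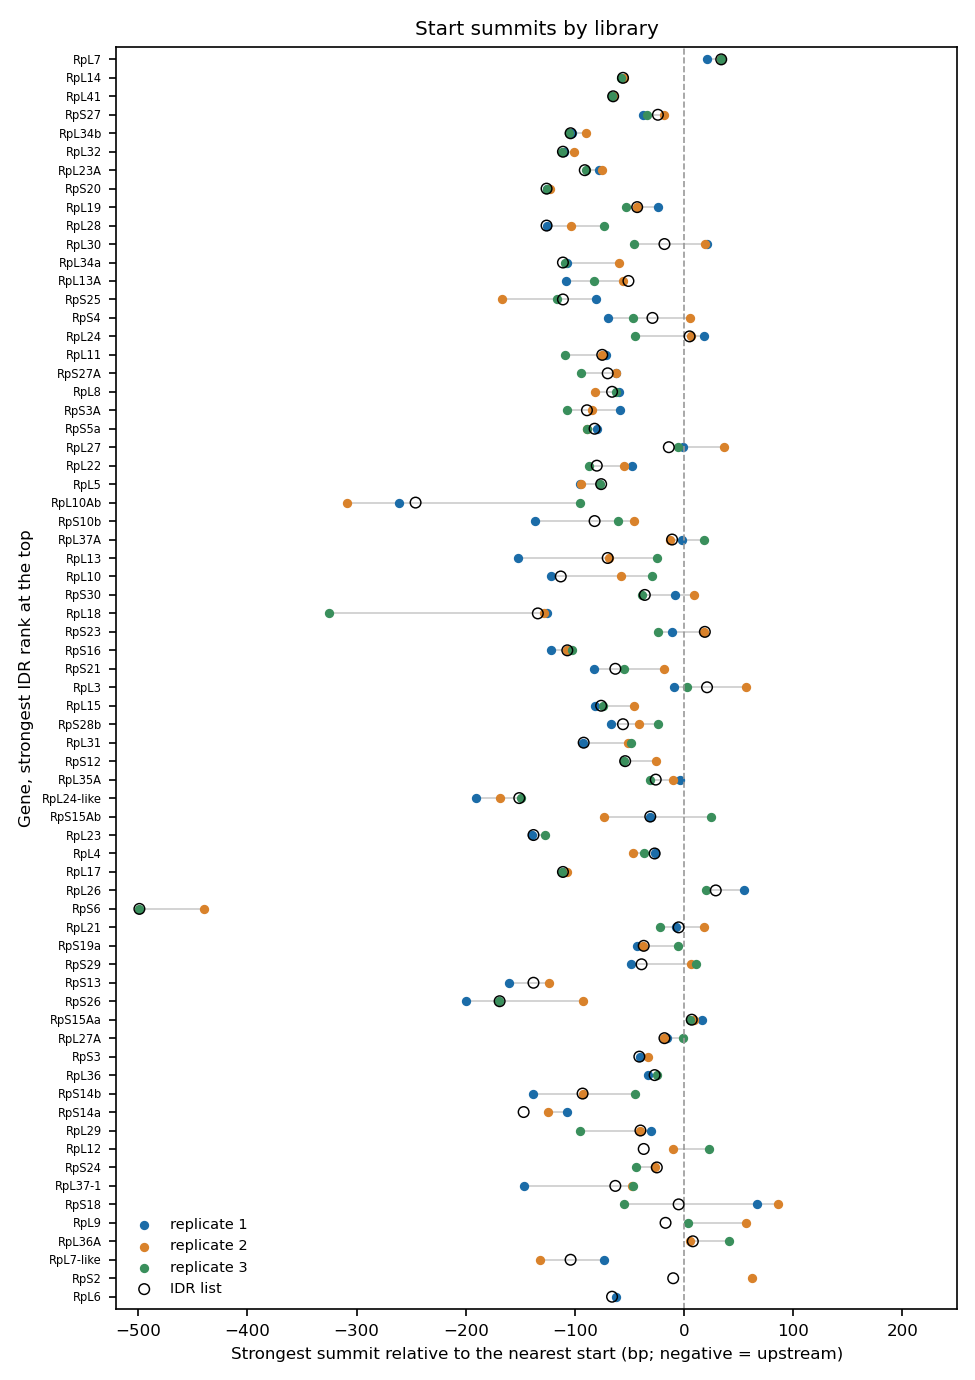
Position of the strongest start summit relative to the nearest transcript start (x axis, bp, negative upstream) for 68 of the 70 ribosomal protein genes with an IDR start summit (rows, strongest IDR rank at the top), with filled points for the top list of each replicate and open circles for the IDR list. In most rows the points of the 3 libraries lie together just upstream of the start, while RpS6 sits near −499 bp and RpL10Ab and RpL18 are spread widely.

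The libraries placed the summits at nearly the same bases. A start summit was present in all 3 top lists at 55 members (62.5%), against 21.0% of all protein-coding genes. A further 14 members had one in 2 top lists and 4 in 1, and 15 had one in none. At 49 of the 55 (89.1%) the strongest summits of the 3 libraries lay within 100 bp of each other, against 80.4% over all genes with a summit in every top list. The strongest summit near any start was taken, so libraries that favour different starts of a long gene count as apart. The widest span was 232 bp at members and 99932 bp over all genes, so these shares do not compare precision of place alone. The median span over the 3 libraries was 44 bp, against 47 bp over all genes, so the members were no more tightly placed in the median. Between pairs of libraries the median distance was 20 bp for replicates 1 and 2, 29.5 bp for 1 and 3, and 30 bp for 2 and 3. The wide spans included RpL10Ab, at −261, −309 and −95 bp, and RpL18, at −126, −128 and −325 bp.

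Replicate 1 ranked these genes lower than the other libraries did. Among the 55 members the best rank was in replicate 1 at 6, in replicate 2 at 21 and in replicate 3 at 28, and the weakest rank was in replicate 1 at 31. Their median ranks were 2968, 2048 and 2183. Replicate 3 was stronger than replicate 1 at 48 of 58 members with a summit in both, replicate 2 was stronger than replicate 1 at 36 of 59, and replicate 3 was stronger than replicate 2 at 34 of 62. Wide ranges of rank among the 55 were found at RpS28b (7183, 1794 and 2374 in replicates 1, 2 and 3), RpL35A (7380, 3274 and 3284), RpS15Aa (7330, 5371 and 3265) and RpS29 (6670, 6694 and 2726). RpS28b, RpL35A and RpS15Aa had their weakest rank in replicate 1. Whether depth or enrichment of the libraries moves with these ranks was not tested, since the lists hold no counts.

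**Figure D3:**
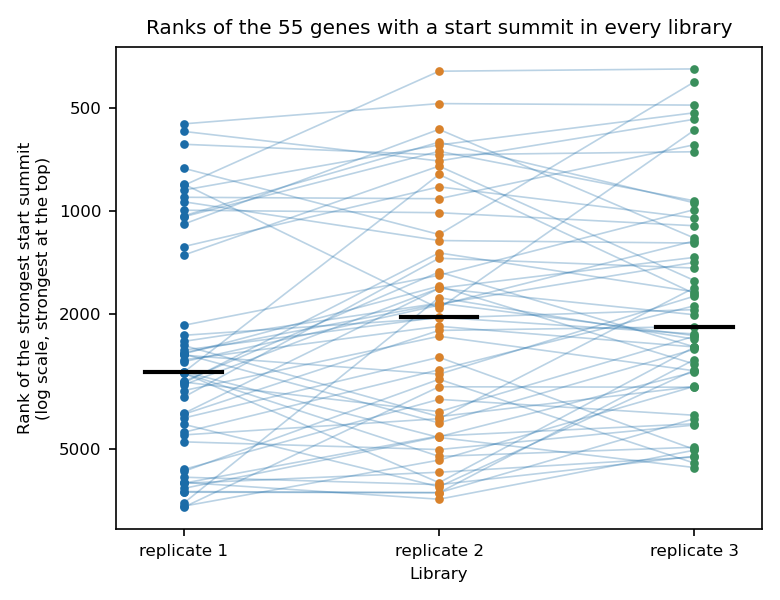
Rank of the strongest start summit in the top list of each library (y axis, log scale, strongest at the top) for the 55 ribosomal protein genes with a start summit in every library, with 1 line per gene and a black bar at the median. The medians are 2968 in replicate 1, 2048 in replicate 2 and 2183 in replicate 3, and the lines cross often.

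The 18 members without an IDR start summit included RpL10Aa, RpL22-like, RpL35, RpL37-2, RpL38, RpL39, RpL40, RpL7A, RpS10a, RpS15, RpS19b, RpS28-like, RpS28a, RpS5b, RpS7 and RpS9. Most of them had a weaker summit. In the whole pooled list 14 of the 18 had a start summit, at ranks of up to 25538 with a median of 13777, which brought the members with any start summit to 84 of 88 (95.5%), against 53.8% of all protein-coding genes. On the same list 67 of 73 mitochondrial ribosomal protein genes (91.8%) and 33 of 48 proteasome genes (68.8%) had one. The 4 with none in the pooled list were RpL10Aa, RpL22-like, RpS10a and RpS28-like, each a copy of a duplicated gene. RpL10Aa and RpS28-like had none in any whole library list either, while RpL22-like ranked 28995 in replicate 1 alone and RpS10a ranked 20910 in replicate 3 alone.

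Among the 18, 10 have no listed paralog, and all 10 were in the whole pooled list. RpL39 stood just outside the IDR list at pooled rank 9493, with 6404 in replicate 2, 5727 in replicate 3 and none in replicate 1. RpS9 had pooled rank 11156, RpS7 12730, RpS15 15709, RpL35 16653 and RpL7A 17256. RpL40, which is made as a fusion with ubiquitin, had pooled rank 20194 and none in replicate 1. RpL38 was the most uneven, at rank 1651 and −73 bp in replicate 3, 14813 in replicate 1, none in replicate 2 and 21458 in the pooled list. At the other side of the limit, the weakest members inside the IDR list were RpS2 at 7173 and RpL6 at 7203.

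Duplicated genes split by copy. Of 12 sets of paralogs, which hold 25 members, all copies had an IDR start summit in 5 sets and a single copy had one in the other 7. Start summits were present at 17 of 25 paralog copies (68.0%) and at 53 of 63 members with no listed paralog (84.1%). In the 7 split sets the copies with a summit were RpL10Ab (rank 2208), RpL22 (2149), RpL37-1 (5991), RpS5a (2042), RpS10b (2391), RpS19a (4395) and RpS28b (3100). The copies without were RpL10Aa, RpL22-like, RpL37-2 (pooled rank 14824), RpS5b (25538), RpS10a, RpS19b (10429), and RpS28a (10942) with RpS28-like. RpL22-like and RpS5b are known in the fly for expression biased to the germ line.

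RpS5a and RpS5b both had a summit in every library, at very different ranks. RpS5a ranked 2313, 2058 and 1945 in replicates 1, 2 and 3, with summits at −80, −89 and −89 bp, whereas RpS5b ranked 21633, 22769 and 24807 in the whole lists. Both printed promoters hold a CTTT at the start. RpS10b ranked 3158, 1509 and 2500, against the lone rank of 20910 for RpS10a. RpL10Ab ranked 2410, 1862 and 2318, against none for RpL10Aa. The promoters printed for RpS10b and RpL10Ab each hold a DRE, and those of RpS10a and RpL10Aa hold none of the marked motifs. These pairs are examples from the split sets. The sets were split by the list pooled from the same libraries, so the gaps in library rank largely follow from that choice and are no separate result. Within 100 bp of the strongest IDR summit, RpS10b and RpL37-1 had a DRE. RpL10Ab, RpL22, RpS5a, RpS19a and RpS28b had none there. The strongest summit of RpL10Ab, at −246 bp, lay upstream of the printed sequence, and its weaker one at −46 bp lay inside it.

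**Figure D4:**
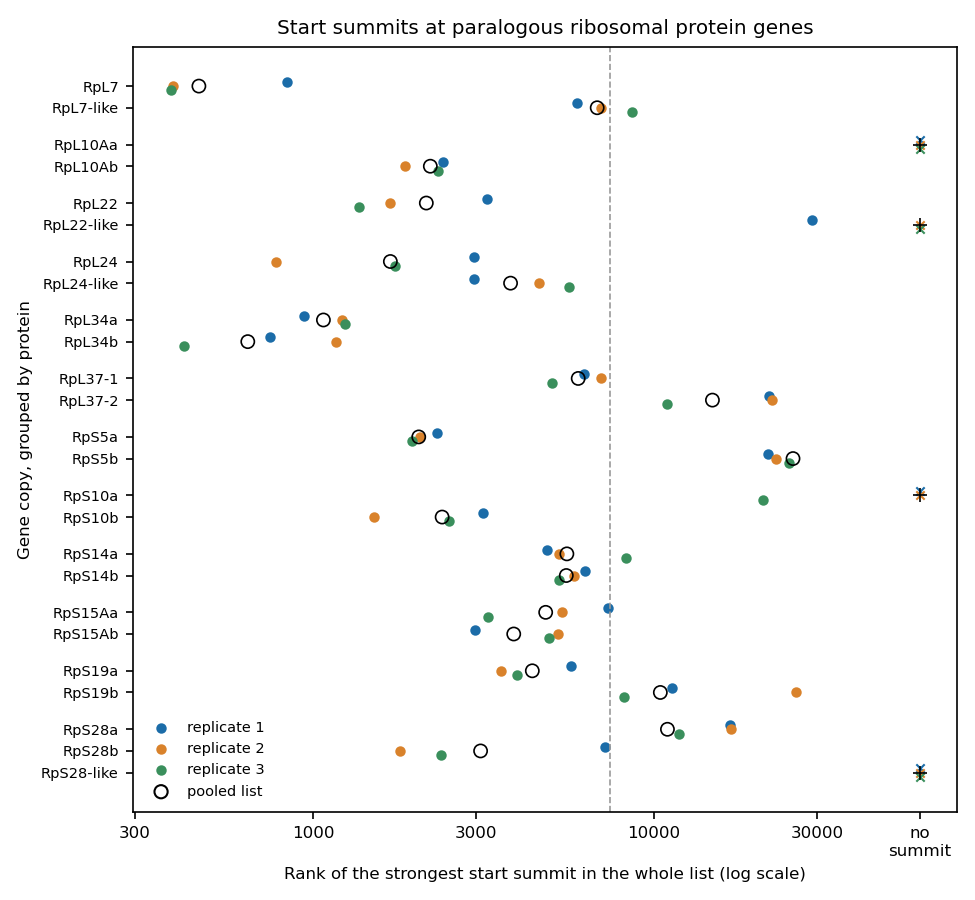
Rank of the strongest start summit in the whole list (x axis, log scale, stronger to the left) for each copy of 12 sets of paralogous ribosomal protein genes (rows), with filled points for the 3 libraries, open circles for the pooled list and crosses at the right where a list has no start summit. The dashed line marks rank 7405, the size of the IDR list, and in 7 sets the open circles or crosses of the copies fall on opposite sides of it.

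Where all copies had a summit, they could still differ. RpL7 ranked 463 and RpL7-like 6810, near the opposite ends of the members' range. RpL24 ranked 1686 and RpL24-like 3795, the summit of the latter lying 5 bp from the start of CG5276. RpL34b ranked 644 and RpL34a 1073, RpS15Ab 3877 and RpS15Aa 4810, and RpS14b 5528 and RpS14a 5550. RpS14a and RpS14b are near-identical neighbours, their reads can be assigned to either copy, and how reads with several matches were treated is not given in the sources used here, so their values are uncertain. Of 5 members whose annotated transcripts have 1 exon block, 1 had a start summit, and RpL10Aa, RpL37-2, RpS10a and RpS28a had none, whereas 69 of 83 members with introns had one. The genes with 1 exon block named there are all among the 8 paralog copies without a start summit, so at those genes exon number and copy cannot be told apart. The other copies without one, RpL22-like, RpS19b, RpS28-like and RpS5b, have 2 or more exon blocks. The share over all genes with 1 exon block is not given.

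The members' summits mostly belonged to no nearer gene. The member's own start was the nearest protein-coding start at 65 of 70 summits (92.9%), against 72.8% of the 4089 genes. At the other 5, another start was nearer: that of Dref at RpL13 (14 bp from the summit), CG5276 at RpL24-like (5 bp), CSN8 at RpS13 (55 bp), Lsm10 at RpS15Ab (5 bp) and bys at RpS6 (50 bp). RpL13 thus shares its summit, rank 2441, with the gene for DREF itself. A start on the opposite strand lay within 500 bp of the summit at 33 of 70 members (47.1%), against 53.6% of all such genes. The median rank was 2857 with such a start and 3100 without one.

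Strong body summits near some members lay at neighbours instead. One of rank 149 was counted for RpL3, whose own start summit ranked 2923, and lay 106 bp from the start of CG17726. RpL13A had a start summit of rank 1102 and a body summit of rank 611 that lay 15 bp from the start of Dph4. The body summit of RpL39 was the start summit of its neighbour RpL12, rank 5693. Just outside the limit of 500 bp were RpS28-like at +556 bp (109 bp from the start of numb), RpL35 at −576 bp (13 bp from Rab18) and RpS15 at −601 bp (251 bp from CG4927).

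Large-subunit genes had a start summit in 42 of 50 cases (84.0%, median rank 2521.5) and small-subunit genes in 28 of 38 (73.7%, 3323.5). By arm, 16 of 18 members on 2L, 13 of 19 on 2R, 11 of 13 on 3L, 17 of 23 on 3R, 1 of 1 on 4 and 12 of 14 on X had one. The median rank of those on X was 4291, against 2776.5 on the autosomes, whose members numbered 58 of 74. Many ribosomal protein genes carry small nucleolar RNAs, guides for RNA modification, in their introns. A start summit was present at 24 of the 28 such hosts (85.7%, median rank 2206.5) and at 46 of the other 60 members (76.7%, 3483.5). Differences of this size between subsets of the members have no test in a single group. Matching values over all genes on each arm, or over all snoRNA hosts, are not given. The gaps by arm and by host thus cannot be read as particular to ribosomal protein genes.

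Most members carried a CTTT near the start. A CTTT on the coding strand with its C within 5 bp of a start was present at 56 of 88 members (63.6%), against 8.07% of all protein-coding genes. The C was at the annotated start or 1 base from it at 7 of the 56, so this loose match to the TCT core need not be the initiator itself. Of the members with it 46 (82.1%) had a start summit, and of the 32 without it 24 (75%) had one. Among 1069 other protein-coding genes with such a CTTT, 357 (33.4%) had a start summit, near the 29.3% over all genes. Members without an IDR start summit carried it as well: 8 of the 10 without a listed paralog did, and 2 of the 8 paralog copies.

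Motifs were counted on both strands within 100 bp of the summit, at the 70 members' summits and at 3173 other IDR summits within 500 bp of a protein-coding start. The DRE, TATCGATA, was present at 20 of 70 members (28.6%) and at 349 of the other summits (11%). In the libraries its share at members was 27.0%, 26.5% and 28.8% (27.4 ± 1.22, SD, n = 3). TAATTA, the homeodomain core, was found at 9 of 70 (12.9%) and at 634 of the 3173 others, and in the libraries at 15.9%, 10.3% and 9.09% of members (11.8 ± 3.62, SD, n = 3). The same bases in another order, TAAATT, stood at 38.6% and 40.1%. The library means at other promoter summits were 10.4% for the DRE and 20.2% for TAATTA. No test was made of either difference, and the TAATTA share rests on 9 summits. These are counts of letters, and neither shows that a factor is bound there.

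**Figure D5:**
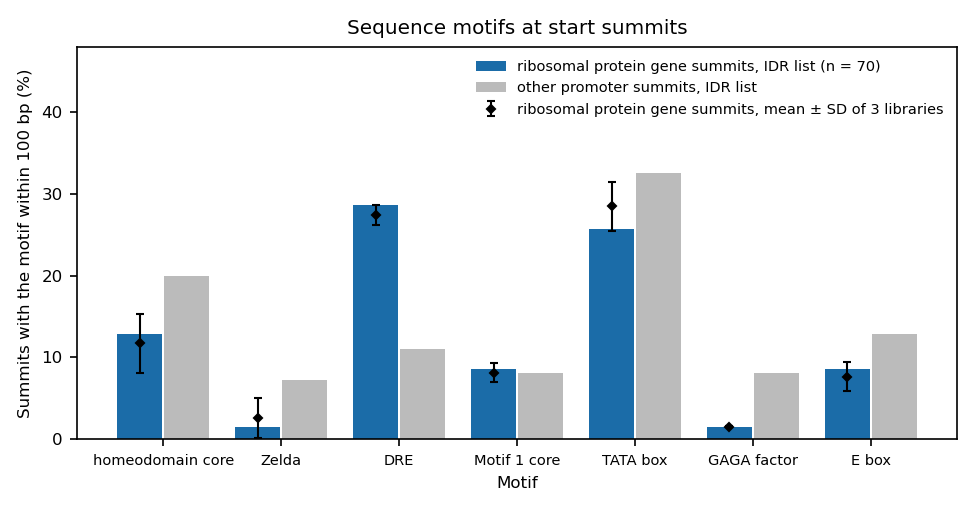
Percent of start summits with each motif within 100 bp (y axis, from 0) at the 70 ribosomal protein gene summits of the IDR list (blue) and at other promoter summits (grey), with diamonds and error bars for the mean ± SD of the 3 libraries at ribosomal protein genes. The DRE is the motif most raised at these genes, 28.6% against 11%. The homeodomain core, the Zelda and GAGA factor motifs, the E box and the TATA box lie below the other summits.

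The motifs of Zelda and GAGA factor were scarce. CAGGTA, the core bound by Zelda, was present at 1 of the 70, RpL23 (1.43% against 7.25%), and GAGAGA, bound by GAGA factor, at 1, RpL4 (1.43% against 8.13%). The E box CAGCTG was present at 8.57% against 12.9%, and TATAAA, the TATA box, at 25.7% against 32.6%. GGTCACAC, the core of Motif 1 bound by M1BP, was present at 8.57% against 8.04%. The 9 members with TAATTA included RpS20, RpS16, RpS15Ab, RpL23, RpS3, RpS14a and RpL37-1. Their median rank was 3877, against 2844 for members without it, and RpS20 was the single gene of the 10 strongest to carry it.

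The DREs counted lie within 100 bp of a summit by construction. Their centre was at a median of 36.5 bp from the summit at members and 41.5 bp at the 349 other promoter summits with one, and 14 of the 20 were within 50 bp. The centre was upstream of the start in 18 of the 20, at a median of −42.5 bp over the 20. Strong summits were not richer in it: the median rank was 4021 with a DRE and 2850.5 without, and 3 of the 10 strongest, RpL41, RpL19 and RpL28, had one. In a window fixed on the start instead, from −150 to +30 bp, the DRE was present at 27 of 88 members (30.7%), against 8.06% of all protein-coding genes. It was present at 25 of the 70 with a start summit (35.7%) and at 2 of the 18 without, RpS7 and RpL39. Over all genes with a start summit that share was 14.6%. TAATTA in that window was present at 11 of 88 members (12.5%), against 11.4% of all genes, and at 8 of the 70 and 3 of the 18, RpS9 and RpL40 among the latter. The 8 of 70 make 11.4%, against 13.9% of all genes with a start summit.

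Genes that work with the ribosome were taken from short lists, to be read beside the 29.3% of all genes with an IDR start summit. The 4 cytosolic ribosomal proteins outside the symbol rule all had an IDR start summit: RpLP0 at rank 1431 and RpLP2 at 2598, proteins of the stalk, RpLP1 at 3733, also of the stalk, and sta, of the small subunit, at 5043. Of 7 translation elongation factor genes 3 had one, eEF1gamma (1043), eEF5 (2447) and eEF2 (5105). There was none at eEF1alpha1, eEF1alpha2, eEF1beta and eEF1delta. eEF1alpha1 had a start summit in the top lists of replicate 2 (5296) and replicate 3 (2922).

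Of 11 matched genes for ribosome production or promoter factors 8 had a start summit. NHP2, a core protein of the RNPs that make pseudouridine, ranked 1085 in the IDR list, and 1371, 1250 and 932 in the libraries. M1BP, which binds Motif 1 at promoters, ranked 1249, and 1126, 1486 and 1170 in the libraries. Both were in the upper part of the members' range. Dref ranked 2441, Fib (fibrillarin) 3014, nop5 5920, Tif-IA, a factor of RNA polymerase I, 6036, Nop56 6429 and Nopp140 6756. In the IDR list Myc, a regulator of growth and ribosome production, had no start summit and a body summit of rank 5829. Trf2, the TBP relative used at TCT promoters, had none at a start there and a body summit of rank 5516, but start summits in the top lists of replicate 1 (6896) and replicate 2 (6786). Xrp1, a factor of cell competition in Minute mutants, had no start summit and 2 body summits, the stronger of rank 5835. The remaining gene of that list, mfl, was not matched to the annotation.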

How the data were processed

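Peaks of 3 Zen-eGFP ChIP-seq libraries on dm6 were called singly and on pooled alignments, always against 1 control alignment, and an IDR list was kept, per the deposited notes. Which aligner and caller made them is not given in the sources used here. The authors deposited a signal score and a −log10 q-value per summit. The score was used only for ranks within a list, and the −log10 q-value in no test. Members and lists were chosen with earlier results of these data known.

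Summits were set against Ensembl release 115 on arms 2L, 2R, 3L, 3R, 4 and X with Python 3.11.15, pandas 2.3.3 and NumPy 2.4.6, and plotted with matplotlib 3.10.9. Coordinates are 1-based. Sequences came from the RefSeq Release 6 assembly, where the first coding bases of all 88 members read ATG. Signs are by the strand of the gene. The step was tested on simulated data, with a summit planted upstream of the 5′-most start at each of 200 genes. The outcome was as planted at 200 of 200, where a summit planted beyond 500 bp counted as right when it was not called. Downstream positions were not planted.

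Named genes are the 10 strongest members, all members without a start summit, all paralog copies, the 5 widest rank ranges, the 3 farthest positions on either side, members with several start summits and the short lists. A few genes are not reported here by name, though counts and medians include them. RpL3, RpL4, RpL6, RpL12, RpL13, RpL13A, RpS2, RpS13, RpS16 and the genes with TAATTA were named after their values were seen. Alternatives were other list sizes, distances, flanks and windows, the 5′-most start, and each pair of libraries. No group comparison exists, so no test was made.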

Additional observations from a re-analysis of the deposited data

How the results depend on the processing

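Start counts stayed above the share over all genes at distances of 200 bp (69 members, 22.6% of all genes) and 1000 bp (74, 33.1%). In the looser pooled lists the excess shrank, with 77 members (43.4% of all genes) and 84 (53.8%) at starts and 82 (62.4%) and 86 (72.9%) in bodies. In the stronger 50 percent of the IDR list 42 members had a start summit (15.4% of all genes) and 49 a body summit (28.5%), the median rank was 1993.5, and the libraries averaged 41.7 members. With no flank 15 of 88 members had a body summit, close to the share of 14.7% over all genes. The median rank in the whole pooled list was 3743.5. Summits shared in place by 3 libraries numbered 31 at 50 bp and 53 at 200 bp. In windows of 50 bp TAATTA was at 4.29% of members (11.4% of other summits) and the DRE at 18.6% (6.05%). Leaving out each replicate gave median ranks of 1973 to 2517, positions of −67 to −51 bp, start counts of 56 to 61 (21.4% to 22.6% of all genes), body counts of 62 to 68 (36.9% to 38.6%), per-library means of 64.5 to 67, TAATTA shares of 8.20% to 14.3% and DRE shares of 25% to 27.9%. The halved list ends at rank 3702, and the lists without a replicate reached fewer genes than the 29.3% of the IDR list. Median ranks from lists of other sizes are thus not comparable with the 2907 of the IDR list, and no such median over all genes is given. The rule that no other start be nearer, and the motif shares by pairs of libraries, were chosen after seeing the data. TAATTA within 100 bp of summits was at 12.9% of members, against 20% of other promoter summits. In the window fixed on the start it was at 11.4% of members with a start summit, against 13.9% of all genes with one. Over all 88 members, with or without a summit, that window held it at 12.5%, against 11.4% of all genes. The proteasome set went from 39.6% against 29.3% to 20.8% against 21.9% under the nearest-start rule. No paired analysis was possible because all libraries form a single group. The lists give no depth, so weak summits missing from a list cannot be told from summits that were not detectable.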
